A study of Homo sapiens with 6 samples.

Results

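The clustered histone genes are the protein-coding genes whose symbols begin with HIST1H, HIST2H, HIST3H or HIST4H. This rule was met by 71 of the 58735 genes with deposited counts. They comprise 6 genes for the linker histone H1, 17 for H2A, 18 for H2B, 15 for H3 and 15 for H4. They were followed in RNA-seq of Het1A cells, a human oesophageal epithelial line immortalised with SV40 large T antigen, in 3 control and 3 bile acid libraries. In the bile acid group the cells met medium of pH 4.0 holding 100 µM of mixed glycocholic, taurocholic, glycodeoxycholic, glycochenodeoxycholic and deoxycholic acid for 10 min on each of 5 days. The control group received the solvent, DMSO at 0.1%, and the labels do not say whether its medium was acidified, so acid and bile acids cannot be told apart. Serum was lowered to 1% for all cells 48 h ahead of the exposures and stayed there, and the RNA dates from 24 h after day 5. The labels number the libraries as biological replicates without saying how the cultures were separated, so the p-values measure only the spread between these libraries.

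Histones H2A, H2B, H3 and H4 form the core around which DNA is wrapped, and H1 binds the DNA that enters and leaves it. The clustered genes supply most of the histone protein a cell needs while it copies its DNA, and their transcription is tied to S phase through the coactivator NPAT. Their mRNAs mostly end in a short stem-loop instead of a poly(A) tail; the stem-loop-binding protein SLBP holds that hairpin during processing, export and translation, while some of the genes also make longer, polyadenylated transcripts.

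The libraries held 21006677 to 28497721 counts. By plain library size, 3 counts correspond to 0.105 to 0.143 counts per M counts (CPM, 1 M = 1000000). The CPM given below are TMM-scaled unless stated, and there 3 counts in control library 2 correspond to 0.168 CPM. Control library 2 stood apart, with a count for 19101 genes against 24174 to 25337 in the other 5. Of the 38 clustered histone genes counted in all other libraries 9 (23.7%) were at 0 in control library 2 alone, against 12.7% of all such genes. These shares were not matched for abundance, and the clustered histone genes were of low abundance, as described below. Each other library was alone at 0 for 0 to 2 clustered histone genes. The line carried the epithelial keratins KRT8 and KRT18 at a mean of 62.0 and 87.0 fragments per kilobase and per M fragments (FPKM), while the basal squamous markers KRT5, KRT14, KRT15 and TP63 were at 0.031 FPKM or less. KRT17, also a keratin of basal cells, had a mean of 25.8 FPKM. The leukocyte markers PTPRC, CD3E and LYZ were listed at 0, the summed endothelial markers reached at most 0.585 CPM, and of the fibroblast genes COL3A1 was at 0 while COL1A1 had a mean of 12.3 FPKM.

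The clustered histone genes were scarcely represented in these libraries. Their mean FPKM over the 6 libraries reached 1 for 9 of the 71 (12.7%), against 56.1% of the 19951 protein-coding genes, and their median was 0.192 FPKM against 1.82. In all they received 6213 counts. As a share this was, per M counts, 47.8 (95% Wilson interval 45.3 to 50.6), 42.5 (39.8 to 45.3) and 40.6 (38.0 to 43.4) in control libraries 1 to 3. In bile acid libraries 1 to 3 it was 34.0 (31.9 to 36.2), 43.0 (40.6 to 45.6) and 37.4 (35.3 to 39.8) per M counts. These intervals cover counting error only; the ranges of the groups overlapped. A small number of genes carried the signal. HIST1H2BH alone held 24.6% of the counts, and the leading 7 genes held 63.1%. By contrast, 9 genes had no count in any library, 30 had 1 to 30 counts over the 6 libraries, 21 had 31 to 100, and 11 had more. The 9 genes at 0 in the deposited counts were HIST1H1T, HIST1H2AA, HIST1H2AD, HIST1H2AK, HIST1H2AM, HIST1H3D, HIST2H3A, HIST2H3PS2 and HIST1H4G. In 5 of them (HIST1H2AD, HIST1H2AK, HIST1H2AM, HIST1H3D and HIST2H3PS2) over 50% of exonic bases are shared with another annotated gene, so a 0 there does not show that the gene is silent. In 11 clustered histone genes over 50% of all 150-base windows recur exactly in another histone gene, so their counts are uncertain; none of these 11 passed the filter on low counts.

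**Figure D1:**
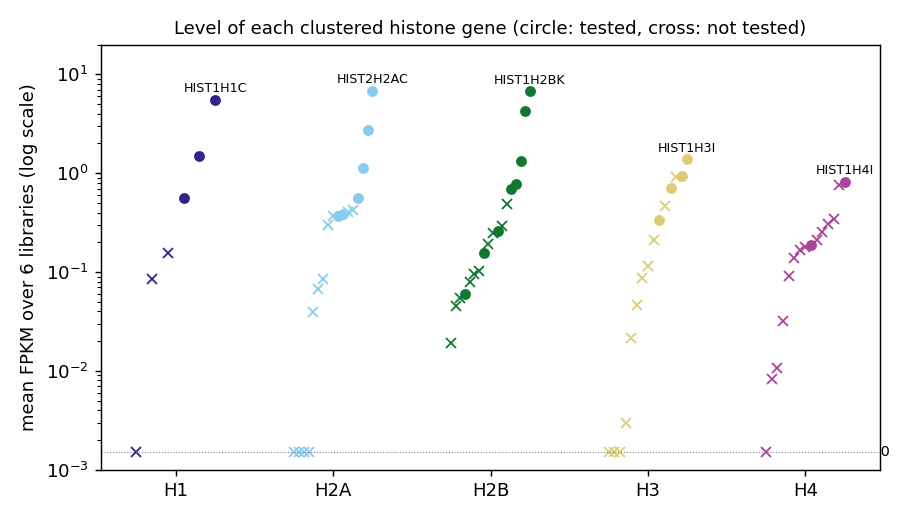
Mean FPKM over 6 libraries of each clustered histone gene, by histone type, on a log axis, with genes at 0 set apart. Only 9 of the 71 genes reach 1 FPKM, and HIST1H1C, HIST1H2BK, HIST2H2AC and HIST1H2BH are the most abundant per length.

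To show how these transcripts end, the stem-loop was searched in the annotated GENCODE 29 transcripts of the same coordinates. The pattern was GGNNNTTTNNANNNCC with the inner bases of both arms pairing, a G·T pair allowed, which gives 6-base arms around a 4-base loop. It was found in 31 of the 71 clustered histone genes, and in 99 of 19684 protein-coding genes (0.503%). The sequences below are those of members described later, 5′ to 3′ as DNA, with the paired arms in capitals.
HIST1H2BH: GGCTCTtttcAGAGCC
HIST1H2BD: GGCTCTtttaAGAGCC
HIST1H4I: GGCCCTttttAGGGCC
HIST4H4: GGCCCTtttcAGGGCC
HIST1H2AG: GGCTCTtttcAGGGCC
The form of HIST1H2BH was shared by 17 genes of types H2A, H2B and H3, HIST3H2A and HIST1H2BL among them, and that of HIST1H2BD by 5 genes of types H2B and H3. The forms of HIST1H4I and HIST4H4 occurred in 3 and 5 genes, all of them H4, so the H4 genes carried a C·G-richer arm. HIST1H2AG was the single gene with a G·T pair in the arms.

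The annotated models differ in whether they reach past the hairpin. In 22 genes the transcript runs more than 100 bases beyond it, as in HIST1H2BH (1640 bases), HIST4H4 (1510) and HIST1H2AG (1761), and these 22 genes received 50.8% of the counts. In 9 genes, among them HIST1H2BD and HIST1H2BL with 39 and 40 bases, the transcript with the hairpin ends within 100 bases of it. These genes received 7.16% of the counts. HIST1H2BD has 2 annotated transcripts over chr6:26158146-26171349, and its counts are not split between them. In 33 genes the model is the coding part alone, with 35.5% of the counts, and in the other 7 no hairpin was found, with 6.47%. Per length the order was different: the median was 0.148 FPKM in the 22 long models and 0.211 FPKM in the 33 coding models. Control library 2 had a count for 11 of the 33 coding models against 17 to 23 in the other libraries, and for 15 of the 22 long models against 17 to 19. The labels give total RNA as the molecule; they do not say whether tailed RNA was selected when the libraries were made, and the part of such a step in these levels was not tested.

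With 3 libraries a group, no clustered histone gene passed the test between bile acid and control. Counts sufficed for a test in 23 of the 71 genes (32.4%, against 71.9% of protein-coding genes), and the other 48 were not tested. Of the 23, HIST1H2BL passed the filter through the control libraries alone, and HIST1H2BN through all 3 bile acid libraries but only 1 control library. The quasi-likelihood test of edgeR called 0 of the 23 at an adjusted p under 0.05, where the background over all 17743 genes tested was also 0%; the lowest adjusted p of a clustered histone gene was 0.911. DESeq2 called 0.101% of 17782 genes, and 0 clustered histone genes, whose lowest DESeq2 adjusted p was 0.915. At an unadjusted edgeR p under 0.05 stood 1 of the 23, HIST1H2BL, against 3.31% of all genes. Of the 23 log2 fold changes 8 were positive and 15 negative, with a median of -0.41; over all 17743 genes 8658 were positive and 9085 negative, with a median of -0.01. With a trend of each library with transcript length removed, 11 of the 23 were positive and 12 negative, with a median of -0.15. The authors' deposited table lists 59 of the 71 genes, 21 higher and 38 lower with bile acid, and the lowest of 11 adjusted p-values is 0.977. In bulk RNA, the number of cells that hold a transcript and its amount per cell cannot be told apart.

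**Figure D2:**
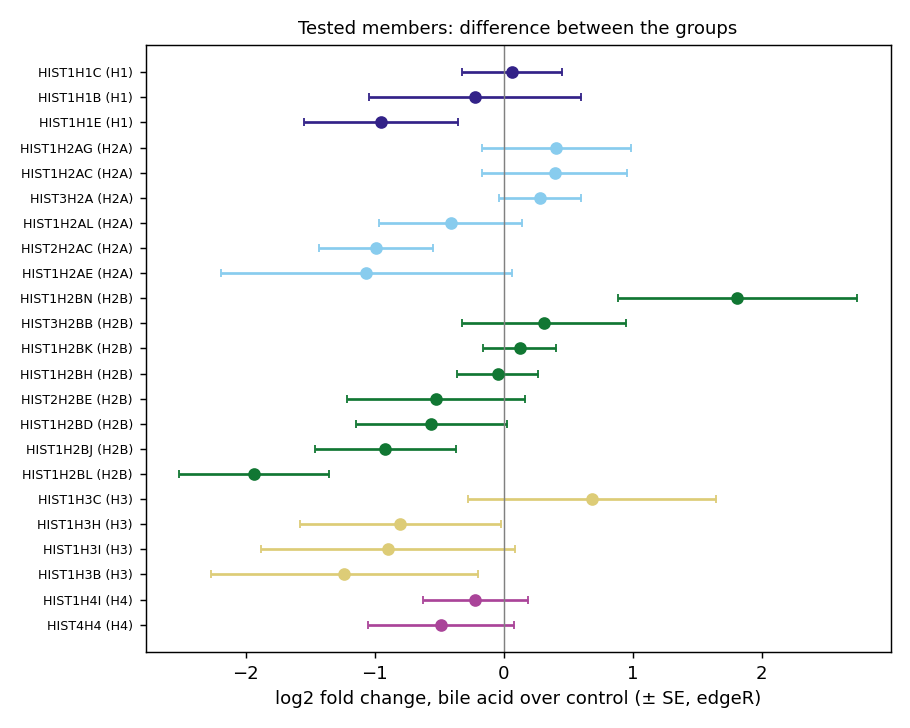
Log2 fold change, bile acid against control, of each of the 23 tested clustered histone genes by type, from edgeR on TMM-scaled counts; bars are ± 1 standard error. HIST1H2BL at -1.93 and HIST1H2BN at 1.81 lie farthest from 0, and the adjusted p of every gene is 0.911 or more.

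Few clustered histone genes had groups without overlap, a share near the background. Every bile acid library was above every control library for 1 of the 23 tested genes, HIST1H2BN, where the background was 5.29% of all genes tested. Every bile acid library was below every control library for 2, HIST2H2AC and HIST1H2BL, where it was 4.89%. Of the 62 clustered genes with a count, tested or not, 4 lay above and 4 below, against 4.34% and 3.49% of all 31022 genes with a count. With control library 2 left out, a comparison added after the data were seen, 2 tested genes lay above (background 12.1%) and 4 below (12.7%); the added genes were HIST3H2BB above, and HIST1H1E and HIST1H2AE below.

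Among the 6 linker histone genes, HIST1H1C (chr6:26055787-26056428, minus strand, GRCh38) was the most abundant, and its groups overlapped widely. Its level was 5.57, 2.86 and 3.71 CPM in the controls and 5.88, 3.95 and 2.89 CPM with bile acid. Its log2 fold change was 0.06 (SE 0.39, n = 3 per group, adjusted p = 0.98 by edgeR's quasi-likelihood test). HIST1H1E followed with 2.77, 0.896 and 1.49 CPM in the controls and 0.428, 1.17 and 1.08 CPM with bile acid. Control library 1 was its highest and bile acid library 1 its lowest value, with the others in between (log2 fold change -0.95, SE 0.60). HIST1H1B stood at 0.288, 0.952 and 0.213 CPM against 0.143, 0.475 and 0.591 CPM, again with overlap. HIST1H1A and HIST1H1D were below 0.3 FPKM in both group means, and HIST1H1T, a testis form, was at 0. The authors' deposited comparison does list HIST1H1T, with a log2 fold change of 1.54, so the deposited sources differ for this gene. Summed over the 6 genes, H1 transcripts reached 6.43 ± 2.12 CPM in the controls and 5.71 ± 0.834 CPM with bile acid (SD, n = 3).

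H2A transcripts came mainly from HIST2H2AC and HIST3H2A, both on chromosome 1. HIST2H2AC (chr1:149886975-149887364, plus strand) was at 3.02, 6.55 and 2.85 CPM in the controls and at 2.03, 2.70 and 1.49 CPM with bile acid. The bile acid libraries were all below the controls, and control library 2 was more than 2-fold above every other library. Its log2 fold change was -0.99 (SE 0.44, adjusted p = 0.911 by edgeR), and without control library 2 it was -0.49. HIST3H2A went the other way in sign, at 2.41, 2.97 and 2.30 CPM against 2.39, 3.40 and 3.55 CPM (log2 fold change 0.28, SE 0.32). HIST1H2AL lay at 0.539, 0.672 and 0.554 CPM in the controls and 0.250, 0.548 and 0.522 CPM with bile acid. Of the other tested H2A genes, HIST1H2AE had a log2 fold change of -1.06 (SE 1.13) and was at 0 in control library 2, HIST1H2AG had 0.41 and HIST1H2AC 0.39. HIST2H2AB, which lies tail to tail with HIST2H2AC and was below the filter, had 7, 6 and 6 counts in the controls and 1, 3 and 5 with bile acid. Its depth-adjusted ratio of bile acid to control was 0.389 (95% interval 0.155 to 0.903, counting error only). Among genes below the filter, such ratios were computed only where the groups did not overlap. The same counts picked the genes, so these intervals do not test a difference. Summed H2A transcripts were 10.2 ± 1.08 CPM against 8.50 ± 1.03 CPM (SD, n = 3), and their ranges touched: the highest bile acid library, at 9.69 CPM, exceeded the lowest control, at 9.49 CPM.

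The promoters of both leading H2A genes are shown because these windows differ in a motif found in most H2A and H2B promoters. They are the 250 bases before and 50 after the RefSeq start (GRCh38.p14), HIST2H2AC at chr1:149886668-149886967 on the plus strand and HIST3H2A at chr1:228457824-228458123 on the minus strand. Capitals mark the TATA box TATAAA, the CCAAT box CCAAT and the octamer ATTTGCAT, on either strand.
HIST2H2AC: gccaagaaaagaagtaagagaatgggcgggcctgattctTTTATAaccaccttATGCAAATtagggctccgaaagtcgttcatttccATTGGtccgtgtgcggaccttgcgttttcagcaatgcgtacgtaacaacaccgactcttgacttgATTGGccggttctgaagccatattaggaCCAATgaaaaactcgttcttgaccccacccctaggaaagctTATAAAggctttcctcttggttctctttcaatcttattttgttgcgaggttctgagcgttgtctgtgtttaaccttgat
HIST3H2A: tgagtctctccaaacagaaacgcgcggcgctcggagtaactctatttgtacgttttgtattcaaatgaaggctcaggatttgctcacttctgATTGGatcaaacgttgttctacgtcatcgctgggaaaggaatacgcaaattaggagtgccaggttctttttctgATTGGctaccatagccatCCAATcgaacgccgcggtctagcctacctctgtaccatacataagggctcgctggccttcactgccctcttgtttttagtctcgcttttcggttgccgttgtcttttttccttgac
The HIST2H2AC window holds 2 TATAAA, 3 CCAAT and 1 octamer, while that of HIST3H2A holds 3 CCAAT and no exact match to the other motifs. Each window covers most of the stretch between the gene and its head-to-head neighbour on the other strand, HIST2H2BE or HIST3H2BB. A motif there cannot be assigned to either gene of the pair.

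H2B was the most represented type, and HIST1H2BH (chr6:26251651-26253710, plus strand) was its main source in counts. It was at 8.41, 14.2 and 8.44 CPM in the controls and at 7.28, 12.2 and 10.6 CPM with bile acid. Control library 2 was again the highest, and the groups overlapped (log2 fold change -0.05, SE 0.31, adjusted p = 0.983 by edgeR, n = 3). Per length HIST1H2BK, one of the genes known to make polyadenylated transcripts, was higher, at 6.49 ± 0.684 FPKM in the controls and 6.97 ± 0.507 FPKM with bile acid. HIST1H2BH was at 4.34 ± 1.33 and 4.14 ± 1.04 FPKM on the same scale. HIST1H2BK varied little between libraries, from 2.51 to 3.35 CPM (log2 fold change 0.12, SE 0.28). HIST1H2BD varied within the controls, at 2.37, 1.96 and 0.511 CPM against 1.21, 1.02 and 1.04 CPM with bile acid (log2 fold change -0.56, SE 0.59).

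HIST1H2BL and HIST1H2BN, H2B genes of low abundance, had the lowest and the highest log2 fold change of the 23 tested genes. HIST1H2BL (chr6:27807444-27807931, minus strand) had 15, 10 and 23 counts in the controls and 5, 5 and 5 with bile acid. In CPM this was 0.539, 0.560 and 0.980 against 0.178, 0.183 and 0.174, so the groups were apart and the bile acid libraries close together. Its log2 fold change was -1.93 (SE 0.58, adjusted p = 0.911 by edgeR, lower in 3 of 3 bile acid libraries). HIST1H2BN (chr6:27837760-27865798, plus strand) had 3, 0 and 9 counts in the controls and 18, 15 and 18 with bile acid. All bile acid libraries, at 0.548 to 0.642 CPM, were above the controls, at 0 to 0.383 CPM (log2 fold change 1.81, SE 0.92, adjusted p = 0.911 by edgeR). Without control library 2, which was at 0, its log2 fold change was 1.33, and without control library 3 it was 3.21. Its exons overlap those of HIST1H2AK and HIST1H2AL over 7.25% of their bases, and the strand setting of the counting is not stated. HIST1H2BJ was at 1.33, 0.952 and 0.682 CPM against 0.749, 0.329 and 0.487 CPM (log2 fold change -0.92, SE 0.54, adjusted p = 0.911 by edgeR). HIST2H2BE (-0.52) and HIST3H2BB (0.31) completed the tested H2B genes. Below the filter, HIST2H2BF had 19, 7 and 13 counts in the controls and 3, 8 and 7 with bile acid, a depth-adjusted ratio of 0.379 (95% interval 0.204 to 0.679, counting error only). Scaled for depth its bile acid libraries were all below the controls. Summed H2B transcripts were 19.7, 24.9 and 16.2 CPM in the controls and 15.0, 20.1 and 18.5 CPM with bile acid.

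**Figure D3:**
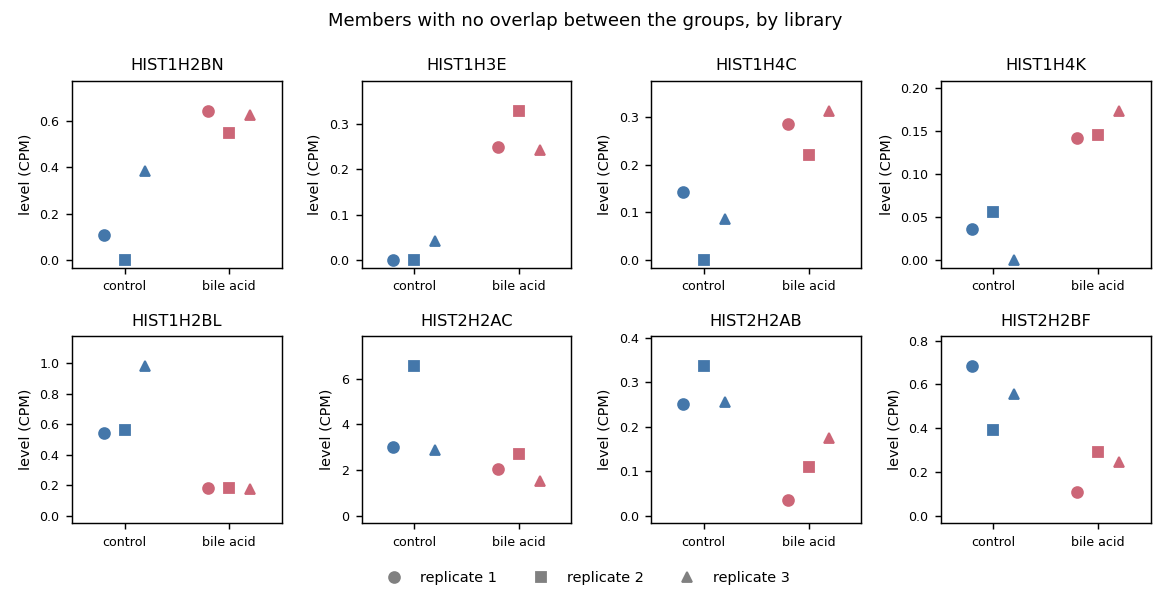
CPM in each library of the 8 clustered histone genes whose bile acid and control libraries did not overlap. The 4 genes above and 4 below compare with a background of 4.34% and 3.49% of genes with a count, and HIST1H3E, HIST1H4C, HIST1H4K, HIST2H2AB and HIST2H2BF were too low for a test.

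The promoters of HIST1H2BH, HIST1H2BL and HIST1H2BN are shown to compare the most counted H2B gene with those that lay farthest from 0. They lie at chr6:26251364-26251663 on the plus strand, chr6:27807880-27808179 on the minus strand and chr6:27838319-27838618 on the plus strand, from the same source and with the same marking. The count table's gene model of HIST1H2BN begins upstream of this RefSeq start.
HIST1H2BH: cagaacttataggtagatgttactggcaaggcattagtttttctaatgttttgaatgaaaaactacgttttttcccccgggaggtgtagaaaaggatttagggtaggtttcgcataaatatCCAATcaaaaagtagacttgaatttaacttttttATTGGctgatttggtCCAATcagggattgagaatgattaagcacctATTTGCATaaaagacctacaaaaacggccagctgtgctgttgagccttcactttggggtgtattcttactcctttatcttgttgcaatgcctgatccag
HIST1H2BL: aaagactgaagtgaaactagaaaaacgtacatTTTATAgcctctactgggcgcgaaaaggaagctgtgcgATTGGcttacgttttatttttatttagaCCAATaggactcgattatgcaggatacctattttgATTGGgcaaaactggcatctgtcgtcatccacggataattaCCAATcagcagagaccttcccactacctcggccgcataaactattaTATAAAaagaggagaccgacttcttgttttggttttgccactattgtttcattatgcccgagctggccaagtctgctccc
HIST1H2BN: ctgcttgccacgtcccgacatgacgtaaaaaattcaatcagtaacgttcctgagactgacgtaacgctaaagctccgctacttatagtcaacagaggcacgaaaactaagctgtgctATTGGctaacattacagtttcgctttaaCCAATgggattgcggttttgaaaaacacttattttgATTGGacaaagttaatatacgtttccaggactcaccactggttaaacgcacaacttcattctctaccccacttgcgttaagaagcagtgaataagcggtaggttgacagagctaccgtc
All 3 hold CCAAT boxes, 3, 4 and 3 in this order. Only the HIST1H2BL window has TATAAA, at 2 places, and only that of HIST1H2BH has the octamer. The HIST1H2BL window covers most of the stretch shared with HIST1H2AI, and that of HIST1H2BN reaches into HIST1H2AK. Motifs in these shared stretches cannot be assigned to either gene.

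H3 transcripts were uneven between libraries. HIST1H3I was at 0.575, 1.29 and 0.724 CPM in the controls and 0.0357, 1.10 and 0.243 CPM with bile acid, so that library 2 was the highest of each group and bile acid library 1 the lowest of all 6 (log2 fold change -0.90, SE 0.98). HIST1H3B had 18, 21 and 2 counts against 2, 15 and 5 (log2 fold change -1.23, SE 1.03), and HIST1H3C 6, 0 and 13 against 9, 12 and 15 (log2 fold change 0.69, SE 0.96). HIST1H3H was the other tested H3 gene, at -0.80 (SE 0.78). In each of these 4 genes the groups overlapped. HIST1H3E, below the filter, had 0, 0 and 1 counts in the controls and 7, 9 and 7 with bile acid, a depth-adjusted ratio of 18.9 with a 95% counting interval from 3.07 to 778. Its mean level was 0.00462 FPKM in the controls and 0.0871 FPKM with bile acid. Summed H3 transcripts were 2.80, 5.66 and 2.68 CPM in the controls and 1.75, 3.84 and 2.75 CPM with bile acid, with library 2 the highest of each group.

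With TMM scaling H4 was the single type whose summed transcripts did not overlap between the groups, at 4.31, 3.25 and 3.62 CPM in the controls and 2.60, 3.00 and 3.06 CPM with bile acid (log2 ratio -0.37). The separation held with RLE or upper-quartile scaling. Leaving out control library 2 could not test it, because groups already apart stay apart when a library is dropped. With plain library sizes the groups overlapped, at 2.76 to 4.58 CPM against 2.63 to 3.09 CPM, and likewise with a length trend removed, at 2.09 to 4.56 against 2.83 to 3.29 CPM. Both tested H4 genes overlapped between the groups. HIST1H4I (chr6:27138588-27139881, plus strand), the most counted, was at 1.15, 1.62 and 1.24 CPM against 1.07, 1.35 and 1.01 CPM (log2 fold change -0.22, SE 0.40). HIST4H4, on chromosome 12 and outside the clusters of the others, was at 0.539, 0.784 and 0.639 CPM against 0.250, 0.512 and 0.626 CPM (log2 fold change -0.49, SE 0.56). HIST1H4C and HIST1H4K, below the filter, lay on the other side. HIST1H4C had 4, 0 and 2 counts in the controls and 8, 6 and 9 with bile acid (ratio 3.15, 95% interval 1.25 to 9.46). HIST1H4K had 1, 1 and 0 counts against 4, 4 and 5 (ratio 5.34, 95% interval 1.21 to 48.7). Both intervals cover counting error only, and both genes were picked because their groups did not overlap. HIST1H4K is uncertain, since 100% of its 150-base windows recur in another histone gene.

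**Figure D4:**
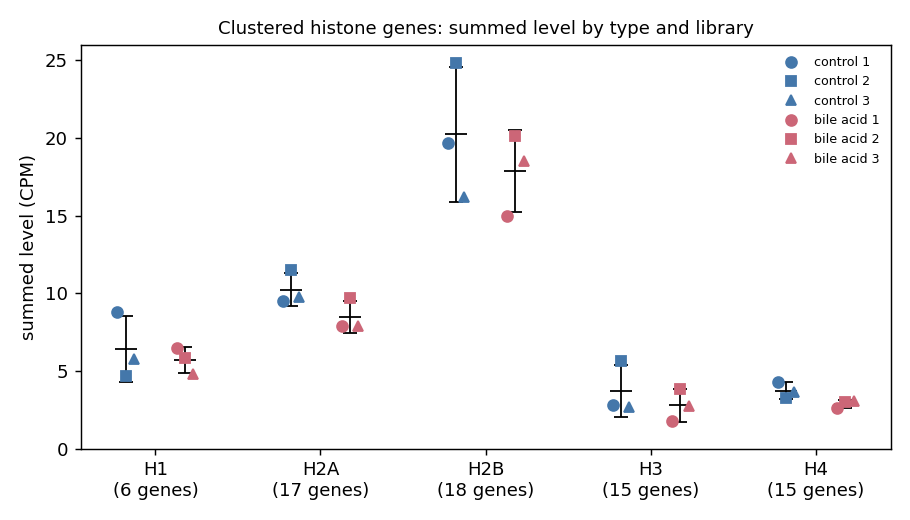
Summed CPM of the clustered histone genes of each type in each library; points are libraries, bars mean ± SD of 3. H4 alone shows separate groups, with controls at 3.25 to 4.31 CPM and bile acid libraries at 2.60 to 3.06 CPM.

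Over all 71 genes the sums were 45.1, 49.9 and 38.1 CPM in the controls and 33.7, 42.5 and 37.1 CPM with bile acid, or 44.4 ± 5.98 against 37.8 ± 4.42 CPM (SD, n = 3). Bile acid library 2 exceeded control library 3, so the groups overlapped. The log2 ratio of the means was -0.23, and -0.01 once a trend of each library with transcript length was removed. By position, the 12 genes of chr1:143905556-149887916, HIST2H2AC among them, were at 5.25, 9.63 and 3.92 CPM in the controls and 2.85, 4.06 and 2.64 CPM with bile acid. Control library 2 stood apart there, and bile acid library 2 exceeded control library 3. The 34 genes of chr6:25726132-26285638 were at 25.5, 24.9 and 20.2 CPM against 19.0, 23.0 and 20.7 CPM. The 21 genes of chr6:27125897-27893843 were at 11.0, 11.0 and 10.8 CPM against 8.74, 10.9 and 9.25 CPM, and the 3 genes of chr1:228424845-228460470 at 2.73, 3.64 and 2.51 CPM against 2.89, 3.98 and 3.93 CPM.

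Many of these genes lie head to head and share the stretch between their starts. By the ends of the annotated models, 12 such pairs were found within 1000 bases, 11 of them of an H2A with an H2B gene. HIST1H2BO was counted both with HIST1H2AM and with HIST1H3J, whose exons overlap. HIST1H2AK and HIST1H2BN were not counted, because the model of HIST1H2BN begins upstream of HIST1H2AK. In 3 pairs both members were tested. HIST2H2BE and HIST2H2AC, 322 bases apart, had log2 fold changes of -0.52 and -0.99. HIST3H2A and HIST3H2BB, 233 bases apart, had 0.28 and 0.31, and HIST1H2BJ and HIST1H2AG, 291 bases apart, had -0.92 and 0.41. None of these values passed a test. RefSeq promoters were matched for 57 of the 71 genes. Of these, 38 (66.7%) held TATAAA, against 11.5% of 35116 promoters of the same length, and 47 (82.5%) held CCAAT, against 34.6%. CCAAT was found in all matched promoters of H1, H2A, H2B and H3 genes but in 3 of 13 H4 promoters. The octamer ATTTGCAT was found in 11 of 16 H2A and 8 of 11 H2B promoters and in none of the others, against 1.77% of all promoters. TTTGGCGC, a motif of E2F type, was found in 0 of 57 and in 0.652% of all promoters. Where genes lie head to head, a match in the shared stretch can count for both. Such matches describe these letters in this window and say nothing of what binds there.

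Histone genes outside the clusters, which are mostly polyadenylated and made throughout the cell cycle, were more abundant per gene, except H3F3C. Of 12 such genes 11 were tested and edgeR called 0 (background 0%); H1F0 and H3F3A had an unadjusted p under 0.05, against 3.31% of all genes. The list had 3 log2 fold changes above and 8 below 0 and a median of -0.22. H1F0, the linker histone of resting and differentiated cells, was at 1368 ± 522 FPKM in the controls and 739 ± 204 FPKM with bile acid (SD, n = 3), while all 71 clustered genes summed to between 37.3 and 57.5 FPKM. It was at 2649, 5409 and 3095 CPM against 2322, 2397 and 1385 CPM, with all bile acid libraries below the controls and control library 2 the highest. Its log2 fold change was -0.87 (SE 0.36, adjusted p = 0.911 by edgeR), and -0.49 without control library 2. H3F3A, a gene for the replacement histone H3.3, was at 43.2 FPKM in the controls and 59.0 FPKM with bile acid on the mean, with every bile acid library above every control (log2 fold change 0.47, adjusted p = 0.911 by edgeR). H3F3B, which encodes the same protein, was at 176 and 150 FPKM with overlap (log2 fold change -0.22). H2AFX, the H2A variant phosphorylated at DNA breaks, was at 80.4 ± 8.0 and 103 ± 6.2 FPKM, again without overlap (log2 fold change 0.37, SE 0.17, adjusted p = 0.911 by edgeR). H2AFZ, the H2A.Z variant of promoters, was at 159 and 112 FPKM, where control library 2 alone stood at 293 FPKM. H1FX was at 374 and 297 FPKM, and H2AFJ at 11.8 and 6.25 FPKM. The log2 fold change of H2AFJ was -0.90, and -0.16 without control library 2, which alone stood at 20.9 FPKM. H2AFX also carries the hairpin pattern, in the form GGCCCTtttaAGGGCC.

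**Figure D5:**
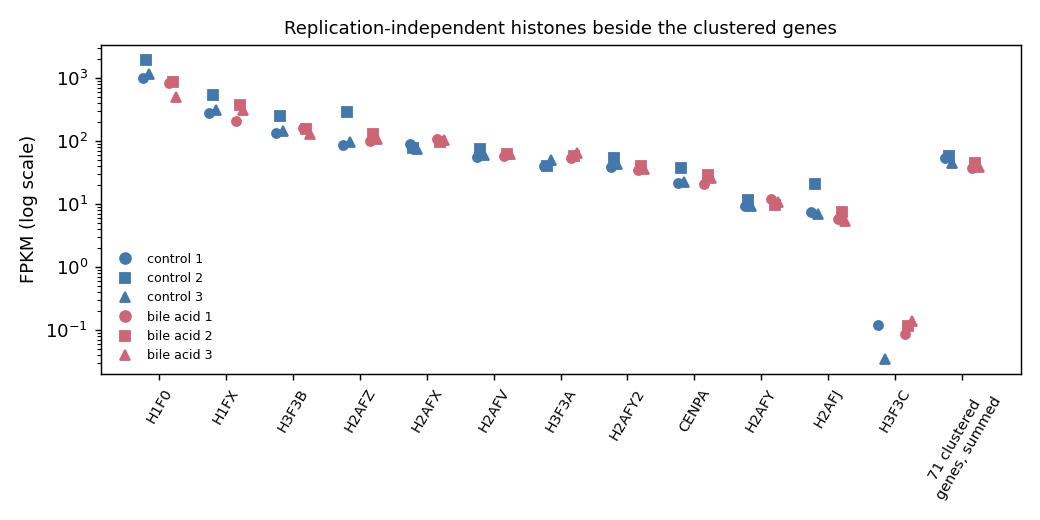
FPKM in each library, on a log axis, of histone genes outside the clusters beside the summed FPKM of the 71 clustered genes; values at 0, such as H3F3C in control library 2, are not drawn. H1F0 has the highest mean in both groups, and the clustered sum, at 37.3 to 57.5 FPKM, lies near H3F3A.

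The genes that make and process clustered histone transcripts were present in all libraries and none was called. Of 19 genes for histone transcription and 3′ end processing, all tested, edgeR called 0, with 11 log2 fold changes positive and 8 negative and a median of 0.08. SLBP was at 130 ± 30.7 FPKM in the controls and 119 ± 8.36 FPKM with bile acid (log2 fold change -0.11, SE 0.23). NPAT was at 6.12, 2.92 and 7.20 FPKM against 8.40, 5.21 and 7.45 FPKM (log2 fold change 0.40). CASP8AP2, whose product FLASH works in the processing of histone transcripts, was at 14.4, 3.26 and 17.2 FPKM against 12.1, 10.9 and 12.9 FPKM. In NPAT and CASP8AP2 control library 2 was the lowest of the 6. Of 15 histone chaperones 0 were called, 6 positive and 9 negative, with a median of -0.14. Of 16 S phase genes 0 were called, 9 positive and 7 negative, with a median of 0.04; PCNA, the replication clamp, was at 164 and 148 FPKM and TK1, thymidine kinase, at 198 and 182 FPKM in controls and bile acid libraries. Among the 7 clustered genes listed as having known polyadenylated forms 6 were tested, 3 positive and 3 negative with a median of -0.23, and they summed to 8.65 to 15.0 CPM in the controls and 8.69 to 12.9 CPM with bile acid.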

How the data were processed

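RNA of 3 control and 3 bile acid libraries was sequenced with 150 bp paired-end reads, per the labels. The submitters' processing notes list GRCh38, HISAT2 2.0.5, DESeq2 and featureCounts, with no roles given. The annotation and strand setting are not given in the sources used here; coordinates in the deposited table equal GENCODE 29 for 100% of genes. The authors deposited whole-number counts, FPKM (fragments per kilobase and per M fragments), and normalized counts, a signal from which whole reads were recovered for 100% of values (tolerance 0.01) and whose totals exceed the count table by 3.84% to 4.20%. Per the file headers, the authors' comparison gives log2 fold changes with a p-value and adjusted p-value. 2 further value columns, the group FPKM table and the gene set table were not used.

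Counts were tested with edgeR 4.0.16 (R 4.3.3), quasi-likelihood, TMM, filterByExpr with a minimum count of 10, Benjamini-Hochberg adjustment over all genes tested and a threshold of 0.05; the test was checked on simulated data. CPM are TMM-scaled. Standard errors are the fold change over the root of F. Lists and sums carry no test. The named genes are the 3 tested members of each type with the highest FPKM, the 3 with the smallest p in each direction, and 10 fixed genes; other genes were chosen after their values were seen. Members and lists were chosen with earlier results of these data known. Alternatives were DESeq2 1.42.0, other scalings and filters, a replicate block, a length trend removed (lowess span 0.3), limma 3.58.1 on log2(FPKM + 1) and log2(FPKM + 0.1), recovered reads, and leaving out each library.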

Additional observations from a re-analysis of the deposited data

How the results depend on the processing

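No clustered histone gene was called under any alternative run. The number at an unadjusted p under 0.05 varied with the run. It was 7 of 62 in each limma run, against 916 and 912 of all 31022 genes. By edgeR it was 4 of 25 without control library 2, against 1459 of 18274. Without bile acid library 3 it was 0 of 27 by edgeR, against 216 of 18313. Over all genes DESeq2 called 18, leaving out 1 library called 0 to 1 (1 without control library 2), and the test on the recovered reads called 0 of 17959. The labels do not say whether same-numbered libraries were pairs. Same-numbered libraries correlated at 0.307, 0.382 and 0.0979. Control libraries 1 and 2 each correlated best with the bile acid library of the same number, but control library 3 with bile acid library 1 (0.189). These values do not settle the pairing. With the replicate block 0 genes were called, and 1109 instead of 588 had an unadjusted edgeR p under 0.05. The median log2 fold change of tested clustered genes was then -0.35. That median, -0.41 over 23 genes in the main run, became -0.062 with 1 CPM in 3 libraries (9 genes left). It was -0.052 with the block and the length trend removed, and -0.58 to -0.30 when 1 library was left out. With limma, over 62 genes, the median was -0.059 on log2(FPKM + 1) and -0.20 on log2(FPKM + 0.1). Adding 1 draws the fold changes of genes this low toward 0. Without the length trend the log2 ratio of sums was -0.0096 for H2A and -0.0055 for all types, and it turned to 0.015 for H1 and 0.036 for H2B, from -0.17 and -0.18; without each type's most abundant gene it was -0.70 for H1 and 0.074 for H2A. Leaving out 1 library gave -0.35 to 0.12 for H1, -0.37 to -0.18 for H2A, -0.32 to -0.0034 for H2B, -0.73 to 0.018 for H3, -0.46 to -0.25 for H4 and -0.33 to -0.14 for all.

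Log2 fold changes that turned sign were those of HIST1H2BH (0.017 by library size, 0.0015 without filter, 0.16 without the length trend, 0.14 with the block too), HIST1H1B (0.21 and 0.12), HIST1H4I (0.018 and 0.024) and SLBP (0.097 and 0.096), each of the last 3 without the length trend and with the block too. With 1 library left out the ranges crossed 0 for HIST1H1C (-0.24 to 0.37), HIST1H1B (-0.61 to 0.68), HIST1H2BH (-0.20 to 0.26), SLBP (-0.24 to 0.12), CASP8AP2 (-0.36 to 0.47), H2AFZ (-0.79 to 0.34), H3F3B (-0.37 to 0.14) and H1FX (-0.50 to 0.054). All these turned without control library 2, and the first 3 also without bile acid library 1. The cause was not tested. Of the 71 clustered genes 48 had too few counts for a test at this depth.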
